A study of Mus musculus with 8 samples.

Results

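The 43 genes described here encode the pore-forming and auxiliary subunits of potassium channels. They were picked by symbol from the 55032 genes of the expression table, and the list takes in voltage-gated, inward rectifier, calcium-activated and two-pore channels with the proteins that attach to them. Their RNA was measured by RNAseq in the striatum of 4 female wild type (WT) mice and 4 female 16p11.2+/- mice, all on the C57BL/6 (B6/C57) background and all at postnatal day 60, and the labels name no other allele and no treatment in either group. The 16p11.2+/- mice carry a heterozygous deletion on chromosome 7 that is not limited to a cell type by a promoter or Cre. Each library came from the dissected striatum of 1 mouse, named by its label WT-1015, WT-1041, WT-1061 or WT-1063 for WT and DF-1018, DF-1037, DF-1059 or DF-1062 for 16p11.2+/-. The WT libraries held from 15125051 to 16387993 counted reads and the 16p11.2+/- libraries from 15240680 to 16523429. All 43 subunits had enough reads to be tested, and the lowest count of any subunit in any mouse was 18.

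Potassium channels let potassium leave the cell and so set the resting potential, the shape of the action potential and the rate of firing. Voltage-gated (Kv) channels open on depolarisation and are built from alpha subunits, to which beta subunits, KChIP proteins (Kcnip genes) or dipeptidyl peptidase-like proteins (Dpp6, Dpp10) may bind. Inward rectifiers (Kcnj) hold the membrane near its resting potential, calcium-activated channels (Kcnma1, Kcnn) follow spikes with a hyperpolarisation, and two-pore channels (Kcnk) carry background current. Most neurons of the striatum are medium spiny neurons, which rest at a very negative potential held by inward rectifier current and whose first spike is delayed by transient and slowly inactivating Kv currents.

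The genotype labels were checked on genes of the deleted segment. Mapk3 had an FPKM (fragments counted, scaled to gene length and to the total of the library) of 35.7, 42.3, 46.4 and 37.6 in the WT mice and 21.5, 22.3, 21.0 and 20.7 in the 16p11.2+/- mice, in the order of the labels above. For Ppp4c the values were 5.95, 5.52, 6.19 and 5.98 in WT and 2.70, 2.86, 2.84 and 3.18 in 16p11.2+/- striatum. Neither gene had overlapping groups, with log2 fold changes of -0.94 (standard error 0.10, edgeR p of 0.00986 adjusted over all genes) and -1.05 (standard error 0.08, adjusted edgeR p of 0.00169). Of 18 genes listed for the segment 17 were tested, all 17 were lower in 16p11.2+/- mice in direction, 13 passed the adjusted threshold of 0.05, and the median log2 fold change was -1.0. None of the potassium channel genes lies in the segment, and 2 of them, Kcnc1 and Kcnj11, are elsewhere on chromosome 7.

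The pieces of tissue were not alike, and this was examined before the subunits. The summed FPKM of 10 marker genes of medium spiny neurons (Drd1, Drd2, Penk and others) was 1380, 1024, 1572 and 942 in the WT mice and 1473, 371, 1370 and 305 in the 16p11.2+/- mice. In this sum DF-1037 and DF-1062 were thus far below the other 6 libraries, and their most abundant marker, Penk, had an FPKM of 111 and 115 against 266 to 456 elsewhere. Pdyn alone of the list did not put both below the others, at 17.8 in DF-1037 and 23.0 in DF-1062 against 18.6 to 29.8 elsewhere. The sum of 8 thalamus markers was 26.0, 30.0, 18.9 and 214 in WT and 110, 203, 33.2 and 217 in 16p11.2+/- mice, so that WT-1063, DF-1018, DF-1037 and DF-1062 were high. The most abundant of these on average, Prkcd, was between 26.3 and 82.0 in the high libraries and at most 14.1 in the others. Calb2 alone of the list did not share this split. It was at 3.12 in DF-1018 and 5.91 in DF-1037, against 13.4 in DF-1059, and it made up 88.8 of the sum in DF-1062. The 7 cortical neuron markers summed to 98.0, 118, 50.5 and 36.3 in WT and 21.9, 166, 47.0 and 24.9 in 16p11.2+/- mice, with most in DF-1037, and their most abundant gene was Slc17a7, with an FPKM of 106 in that mouse. The 6 choroid plexus markers, led by Ttr, summed to 476, 7.65, 16.8 and 4406 in WT and 26.0, 126, 12.1 and 18.2 in 16p11.2+/- mice. High thalamus values thus fell on 1 WT and 3 16p11.2+/- mice and low medium spiny neuron values on 2 16p11.2+/- mice. Each list was detected in every mouse, with no marker at 0 counts.

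Summed markers of the other cell types had narrower ranges over the 8 mice. They ranged from 258 to 407 for 8 interneuron genes (the most abundant Sst), from 353 to 454 for 7 astrocyte genes (Slc1a2), from 56.8 to 96.2 for 5 microglia genes and from 19.8 to 37.2 for 5 endothelial genes (Cldn5). Among the interneuron genes Pvalb, the parvalbumin of fast-spiking interneurons, singled out after its values were seen, had an FPKM of 11.7, 10.4, 20.2 and 75.9 in WT and 42.0, 103, 19.3 and 25.9 in 16p11.2+/- mice. It was thus high in the same 4 libraries as the thalamus markers. The other interneuron genes did not share this split. Sst was at 102 to 155 in those libraries and at 98.8 to 141 in the others. Chat was lowest in DF-1037 (0.914), where Pvalb was highest, and Npy was lowest in DF-1062 (10.6). The 7 oligodendrocyte genes summed to 1470, 1443, 1732 and 1526 in WT and 1166, 1286, 1305 and 949 in 16p11.2+/- mice, so that each 16p11.2+/- mouse was below each WT mouse. No other list had sums without overlap of the genotypes. At an unadjusted edgeR p under 0.05, where 4.32% of all genes were called, 5 of the 7 oligodendrocyte genes and 2 of 4 tested choroid plexus genes were lower in 16p11.2+/- mice, with 0 genes in each of the other 7 lists, and 0 marker genes of any list passed after adjustment. The part of oligodendrocyte RNA in the subunit values was not tested. In bulk RNA, fewer cells of a type and less RNA per cell cannot be told apart.

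To show what the subunit genes look like at their starts, 4 promoters were read from RefSeq (GRCm38.p6), from 250 bases before to 50 bases after the transcription start. They were chosen after the values were seen and belong to 2 genes that were lowest in the 2 libraries with the fewest medium spiny neuron transcripts (Kcnip2, Kcnj4) and 2 that were highest in the 4 libraries with most thalamus transcripts (Kcnc1, Kcnj9). Capitals mark the letters of a GC box (GGGCGG, or CCGCCC for the other strand) or of a TATA box (TATAAA or TTTATA). The promoters of Kcnip2 (chr19:45816014-45816313, minus strand), Kcnj4 (chr15:79505192-79505491, minus strand), Kcnc1 (chr7:46396218-46396517, plus strand) and Kcnj9 (chr1:172329273-172329572, minus strand) read as follows, 5′ to 3′.
Kcnip2: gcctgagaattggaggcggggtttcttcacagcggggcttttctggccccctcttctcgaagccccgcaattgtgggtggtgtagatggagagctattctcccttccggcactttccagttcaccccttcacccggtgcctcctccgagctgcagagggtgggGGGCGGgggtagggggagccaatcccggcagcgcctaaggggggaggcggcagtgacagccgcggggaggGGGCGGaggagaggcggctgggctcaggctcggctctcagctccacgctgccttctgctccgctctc
Kcnj4: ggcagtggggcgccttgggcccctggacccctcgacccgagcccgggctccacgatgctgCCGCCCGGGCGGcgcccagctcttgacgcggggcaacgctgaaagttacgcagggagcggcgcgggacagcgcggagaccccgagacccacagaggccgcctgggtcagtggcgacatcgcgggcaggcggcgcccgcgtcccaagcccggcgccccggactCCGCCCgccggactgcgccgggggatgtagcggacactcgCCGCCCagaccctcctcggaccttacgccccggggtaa
Kcnc1: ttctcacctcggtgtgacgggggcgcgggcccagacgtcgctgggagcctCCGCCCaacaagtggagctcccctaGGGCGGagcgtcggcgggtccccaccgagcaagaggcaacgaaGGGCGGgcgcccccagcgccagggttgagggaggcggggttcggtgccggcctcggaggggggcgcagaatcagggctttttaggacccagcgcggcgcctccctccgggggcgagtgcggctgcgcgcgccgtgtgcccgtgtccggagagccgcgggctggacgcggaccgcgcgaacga
Kcnj9: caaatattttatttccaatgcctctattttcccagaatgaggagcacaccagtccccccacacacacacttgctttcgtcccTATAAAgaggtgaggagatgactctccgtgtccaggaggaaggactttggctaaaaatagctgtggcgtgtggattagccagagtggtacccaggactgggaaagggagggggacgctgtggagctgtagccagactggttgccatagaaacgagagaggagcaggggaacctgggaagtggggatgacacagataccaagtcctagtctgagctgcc

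The Kcnip2 promoter held 67.0% G and C with 18 CG dinucleotides and 2 GC boxes, that of Kcnj4 76.0% with 41 and 4, and that of Kcnc1 74.7% with 41 and 3. The Kcnj9 promoter stood apart with 52.3%, 5 CG dinucleotides, 0 GC boxes and 1 TATA box. RefSeq promoters matched 35 of the 43 genes, which had 55 promoters between them. Their median GC content was 62.3% (range 36.7 to 78.0), beside 52.7% for all 32851 mouse promoters of the same length, and the median number of CG dinucleotides was 13, beside 7. A GC box on either strand was found in 52.7% of the 55 promoters, of 27 genes, and in 35.7% of all promoters. TATAAA on either strand was found in 5.45% of them, of Dpp6, Kcnab1 and Kcnj9, and in 13.6% of all. The cyclic AMP response element TGACGTCA, which reads alike on both strands, was in 0 of the 55 promoters and in 1.79% of all. Sites of different motifs cannot overlap, since none of the motifs ends with letters that another begins with, and a match describes letters in this window and nothing more.

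Levels in WT striatum spanned from an FPKM of 67.3 ± 14.4 (SD, n = 4 mice, as for every mean given with ± from here on, in either genotype) for Kcnip2 to 1.11 ± 0.498 for Kcnj6, a subunit of G protein-gated inward rectifiers. The 10 highest were Kcnip2, Kcnj10, Kcnab2, Kcnab1, Kcnj4, Kcnd2, Kcnk1, Kcnip3, Kcna1 and Kcna2, down to 26.3 ± 3.97 for the last. A mean WT FPKM of at least 10 was reached by 26 of the 43 subunits, and 4 (Kcnb2, Kcna3, Kcnh5 and Kcnj6) were under 2. In all 42 pairs of neighbours in this order the WT values overlapped, so that the order of neighbours is not resolved by 4 mice. Of the 10 highest, 4 (Kcnip2, Kcnab2, Kcnab1 and Kcnip3) are proteins that attach to Kv channels, 3 (Kcnd2, Kcna1 and Kcna2) are Kv pores, 2 (Kcnj10 and Kcnj4) are inward rectifiers and 1 (Kcnk1) is a two-pore channel. Summed over the 43 genes the FPKM was 743 ± 37.9 in WT and 743 ± 83.4 in 16p11.2+/- striatum.

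**Figure D1:**
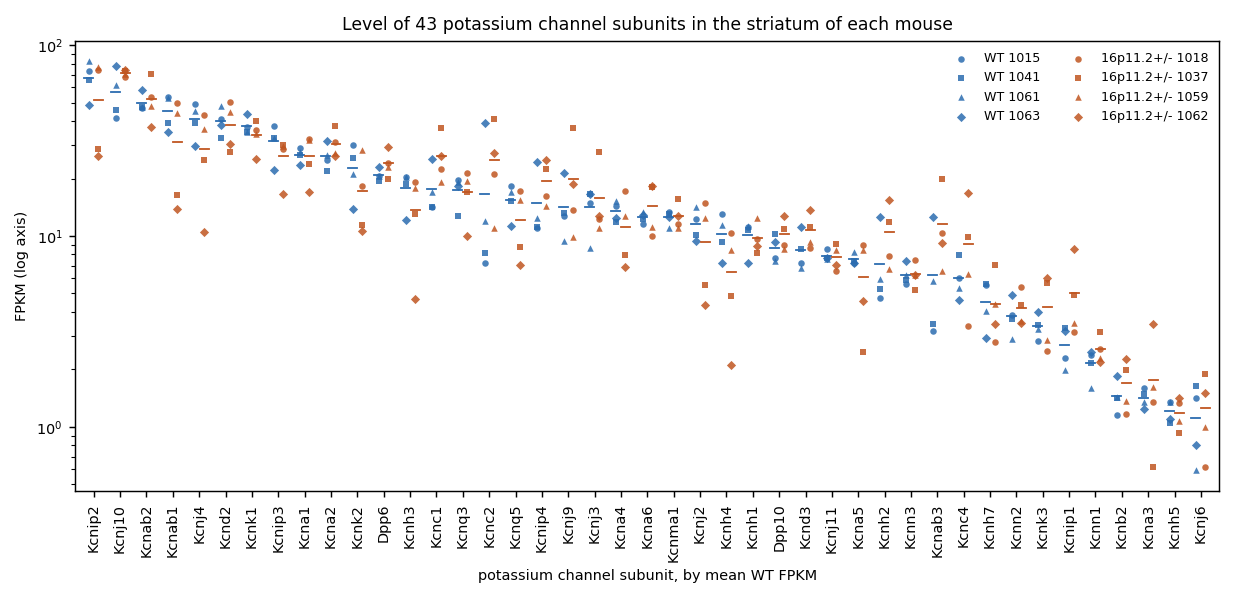
FPKM (log axis) of each of the 43 subunits in each of the 8 mice, ordered by mean WT FPKM, with a dash for the mean of each genotype (n = 4). Levels fall from Kcnip2 (67.3 in WT) to Kcnj6 (1.11), and the values of the genotypes overlap for each subunit.

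Kv1 channels, which give low-threshold currents in axons, were represented by 6 alpha subunits. Kcna1 (ENSMUSG00000047976, chromosome 6, 126640397 to 126646384) had an FPKM of 29.0, 26.5, 27.5 and 23.5 in the WT mice and 32.2, 23.7, 31.8 and 17.0 in the 16p11.2+/- mice. Its partner Kcna2 (ENSMUSG00000040724, chromosome 3, 107101146 to 107115005) had 25.0, 22.0, 26.7 and 31.5 in WT and 31.0, 37.8, 27.1 and 26.2 in 16p11.2+/- mice. Kcna1 was lowest in DF-1062 and Kcna2 highest in DF-1037, and the groups overlapped for both, with log2 fold changes of -0.04 (standard error 0.21) and 0.20 (standard error 0.16). Of the others, Kcna4, which inactivates quickly, had a WT FPKM of 13.5 ± 1.58, Kcna6 12.5 ± 0.794, Kcna5 7.54 ± 0.497 and Kcna3 1.41 ± 0.157. In 16p11.2+/- mice their spread was wider, from 2.46 to 8.96 for Kcna5 and from 0.617 to 3.47 for Kcna3. The log2 fold changes of the 6 genes were between -0.31 and 0.28, with 3 positive and 3 negative. Kcna1, Kcna5 and Kcna6 lie within 208 kb on chromosome 6 (126532551 to 126740674), and Kcna2 and Kcna3 lie with Kcnc4 within 423 kb on chromosome 3 (107036169 to 107459552). The genes of the chromosome 6 cluster did not move alike, since in DF-1037 Kcna5 was at its lowest (2.46) while Kcna6 was at 18, above every WT mouse. Kcna6 shares 39.6% of its exon sequence with other genes, so its level is uncertain.

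Beta subunits bind the inner face of Kv1 channels and, in the case of Kcnab1, can make them inactivate. Kcnab1 (ENSMUSG00000027827, chromosome 3, 65109384 to 65378223) had an FPKM of 53.3, 38.9, 53.1 and 35.0 in WT and 49.6, 16.3, 44.1 and 13.8 in 16p11.2+/- mice. DF-1037 and DF-1062 were below the other 6 mice, while DF-1018 and DF-1059 were within the WT range. Kcnab2 (ENSMUSG00000028931, chromosome 4, 152390742 to 152477871) had 46.8, 47.2, 47.5 and 58.0 in WT and 53.4, 70.5, 47.9 and 37.3 in 16p11.2+/- mice, with 1 16p11.2+/- mouse above and 1 below every WT mouse. Kcnab3 (ENSMUSG00000018470, chromosome 11, 69326258 to 69333042) was at 3.18, 3.46, 5.79 and 12.5 in WT and 10.4, 19.9, 6.57 and 9.19 in 16p11.2+/- mice. It was above 9 in the 4 libraries with high thalamus markers, WT-1063 among them, and below 7 in the others. The log2 fold changes were -0.55 (standard error 0.43), 0.05 (standard error 0.19) and 0.87 (standard error 0.49), and none passed the test. That of Kcnab1 was -0.28 without DF-1062 and -0.89 without DF-1018.

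Kv3 channels open at high voltage, close fast and allow neurons to fire at high rates. Kcnc1 (ENSMUSG00000058975, chromosome 7, 46396497 to 46438704), whose promoter is shown above, had an FPKM of 14.2, 14.1, 16.9 and 25.2 in WT and 22.5, 36.8, 19.2 and 26.3 in 16p11.2+/- mice. Each 16p11.2+/- mouse was above 3 of the WT mice, and 2 were above WT-1063 as well. The log2 fold change was 0.55 (standard error 0.24, edgeR p of 0.0483 unadjusted and 0.859 adjusted over all genes). Kcnc2 (ENSMUSG00000035681, chromosome 10, 112271121 to 112467024) had 7.20, 8.15, 12 and 39.2 in WT and 21.1, 41.2, 11.0 and 27.3 in 16p11.2+/- mice, the widest relative spread of the 43 subunits (coefficient of variation 65.7% over the 8 mice). Like Kcnab3 it was high in WT-1063, DF-1018, DF-1037 and DF-1062, and its log2 fold change was 0.58 (standard error 0.58). This was 0.23 without DF-1037 and 1.44 without WT-1063, and that of Kcnab3 was 0.47 and 1.45 without the same mice. Kcnc4 (ENSMUSG00000027895, chromosome 3, 107438303 to 107459552) had 6.00, 7.96, 5.36 and 4.64 in WT and 3.38, 9.90, 6.34 and 16.8 in 16p11.2+/- mice. DF-1062 and DF-1037 were its highest mice and DF-1018 its lowest, with a log2 fold change of 0.56 (standard error 0.40) that was 0.14 without DF-1062 and 0.84 without DF-1018.

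The single Kv2 member, Kcnb2, a delayed rectifier, was at 1.46 ± 0.292 in WT and 1.70 ± 0.520 in 16p11.2+/- mice, with a log2 fold change of 0.20 (standard error 0.21).

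Kv4 alpha subunits form the transient A-type current of dendrites. Kcnd2 (ENSMUSG00000060882, chromosome 6, 21215503 to 21729805) had an FPKM of 41.1, 32.7, 47.9 and 37.9 in WT and 50.4, 27.4, 44.6 and 30.5 in 16p11.2+/- mice. DF-1037 and DF-1062 were its lowest mice and DF-1018 its highest, and the log2 fold change was -0.08 (standard error 0.22). Kcnd3 was lower, at 8.42 ± 1.99 in WT and 10.7 ± 2.27 in 16p11.2+/- mice, with a log2 fold change of 0.32 (standard error 0.18).

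The 6 auxiliary subunits of Kv4 channels differed among themselves. Kcnip2 (ENSMUSG00000025221, chromosome 19, 45791839 to 45816061), the highest of all 43 subunits by mean WT FPKM though not by mean 16p11.2+/- FPKM, had 73.1, 65.6, 82.3 and 48.4 in WT and 74.2, 28.4, 77.1 and 26.3 in 16p11.2+/- mice. The 16p11.2+/- mice fell into a pair inside the WT range and a pair, DF-1037 and DF-1062, below it, and the log2 fold change was -0.40 (standard error 0.39). This was -0.15 without DF-1062 and -0.65 without DF-1059. Kcnip3 (ENSMUSG00000079056, chromosome 2, 127456498 to 127522094), a calcium sensor also known as a transcriptional repressor, had 37.7, 32.7, 32.7 and 22.1 in WT and 28.4, 29.9, 29.5 and 16.5 in 16p11.2+/- mice, with a log2 fold change of -0.28 (standard error 0.23). Kcnip1 (ENSMUSG00000053519, chromosome 11, 33629339 to 33993152) was low, at 2.3, 3.31, 1.99 and 3.19 in WT and 3.16, 4.92, 3.51 and 8.56 in 16p11.2+/- mice. Of the 16p11.2+/- mice 3 were above every WT mouse and DF-1018 was inside the WT range. Its log2 fold change of 0.87 (standard error 0.30, edgeR p of 0.0186 unadjusted and 0.859 adjusted over all genes) was, with that of Kcnab3, the largest of the 43 in size. Kcnip4 was at 14.8 ± 6.50 in WT and 19.5 ± 5.0 in 16p11.2+/- mice, with WT-1063 (24.5) and DF-1062 (25.0) highest. Dpp6 and Dpp10, which speed the gating of Kv4 channels, were at 20.9 ± 1.62 and 8.67 ± 1.39 in WT and at 24.1 ± 3.86 and 10.3 ± 1.95 in 16p11.2+/- mice, with log2 fold changes of 0.18 (standard error 0.11) and 0.22 (standard error 0.14).

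Among the 6 EAG, ERG and ELK channels (Kcnh), 5 had a negative and 1 a positive log2 fold change. Kcnh4 (ENSMUSG00000035355, chromosome 11, 100740376 to 100759942), of the ELK branch, had an FPKM of 13.1, 9.29, 11.4 and 7.24 in WT and 10.4, 4.83, 8.42 and 2.1 in 16p11.2+/- mice. DF-1037 and DF-1062 were below every other mouse, and the highest value was 6.26 times the lowest, the widest such ratio of the list. The log2 fold change of -0.68 (standard error 0.44) was the lowest of the 43 and did not pass the test (edgeR p of 0.160 unadjusted). It was -1.02 without DF-1018 (edgeR p of 0.0474 unadjusted and 0.651 adjusted), -0.36 without DF-1062 and -0.12 without DF-1037 and DF-1062. Kcnh3, also an ELK channel, was at 17.9 ± 3.93 in WT and 13.7 ± 6.56 in 16p11.2+/- mice, with 4.68 in DF-1062. Kcnh2, the ERG channel that repolarises heart muscle, had the one positive log2 fold change of its family (0.53, standard error 0.35, edgeR p of 0.168 unadjusted), at 7.14 ± 3.69 in WT and 10.5 ± 4.01 in 16p11.2+/- mice, with 12.6 in WT-1063 and 15.5 in DF-1062. Kcnh1 was at 10.1 ± 1.96 in WT and 9.75 ± 1.88 in 16p11.2+/- mice, Kcnh7 at 4.53 ± 1.30 and 4.42 ± 1.87, and Kcnh5 at 1.21 ± 0.164 and 1.19 ± 0.223. The KCNQ subunits, which carry the M-current that muscarinic receptors close, were at 17.4 ± 3.24 in WT and 17.0 ± 5.01 in 16p11.2+/- mice for Kcnq3 and at 15.4 ± 3.04 and 12.1 ± 4.96 for Kcnq5.

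The 7 inward rectifiers belong to glial, classical, G protein-gated and ATP-sensitive types. Kcnj10 (ENSMUSG00000044708, chromosome 1, 172341210 to 172374085), the glial channel that takes up extracellular potassium, had 41.4, 45.9, 61.4 and 77.8 in WT and 67.8, 72.9, 70.6 and 74.4 in 16p11.2+/- mice. Here the WT mice were the more variable, with a coefficient of variation of 29.2% against 4.01% in 16p11.2+/- mice, and the log2 fold change was 0.31 (standard error 0.18). This was 0.20 without WT-1015 and 0.50 without WT-1063 (edgeR p of 0.00698 unadjusted and 0.517 adjusted). Kcnj4 (ENSMUSG00000044216, chromosome 15, 79483714 to 79505241), a classical rectifier, had 48.9, 39.2, 45.3 and 29.6 in WT and 43.1, 24.9, 36.5 and 10.5 in 16p11.2+/- mice, with DF-1037 and DF-1062 below every WT mouse and a log2 fold change of -0.51 (standard error 0.39). The log2 fold change of Kcnj4 was -0.21 without DF-1062 and -0.78 without DF-1018. Its relative Kcnj2 was at 11.5 ± 2.17 in WT and 9.30 ± 5.15 in 16p11.2+/- mice, with the same pair of mice lowest at 5.51 and 4.37.

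Of the G protein-gated subunits, Kcnj9 (ENSMUSG00000038026, chromosome 1, 172320501 to 172329318), which lies close to Kcnj10, had 12.8, 13.2, 9.45 and 21.4 in WT and 13.7, 36.8, 9.93 and 18.7 in 16p11.2+/- mice. It was highest in DF-1037 and WT-1063, and its log2 fold change was 0.46 (standard error 0.40). Kcnj3 was at 14.2 ± 3.78 in WT and 15.9 ± 7.71 in 16p11.2+/- mice, but 31.1% of its exon sequence is shared with other genes. Kcnj6 was at 1.11 ± 0.498 and 1.26 ± 0.564. The ATP-sensitive subunit Kcnj11 was the steadiest of the 43, at 7.87 ± 0.450 in WT and 7.79 ± 1.15 in 16p11.2+/- mice, with a coefficient of variation of 10.3% over the 8 mice.

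Calcium-activated channels had log2 fold changes between -0.01 and 0.23. Kcnma1, the large-conductance pore, was at 12.5 ± 1.02 in WT and 12.8 ± 2.11 in 16p11.2+/- mice, and of the small-conductance pores Kcnn3 was at 6.28 ± 0.789 and 6.31 ± 0.936, Kcnn2 at 3.83 ± 0.834 and 4.21 ± 0.885 and Kcnn1 at 2.15 ± 0.395 and 2.55 ± 0.429. Among the two-pore channels, Kcnk1 (ENSMUSG00000033998, chromosome 8, 125995170 to 126030685) had 37.0, 35.1, 35.0 and 43.8 in WT and 36.1, 39.8, 34.3 and 25.3 in 16p11.2+/- mice, with DF-1062 lowest and a log2 fold change of -0.17 (standard error 0.15). Kcnk2, a channel opened by stretch and lipids, was at 22.6 ± 6.85 in WT and 17.1 ± 8.11 in 16p11.2+/- mice, and 12.2% of its exon sequence is shared with other genes. Kcnk3, an acid-sensitive leak channel, was at 3.37 ± 0.492 and 4.25 ± 1.84.

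For the comparison of genotypes, edgeR's quasi-likelihood test called 0 of the 43 subunits at an adjusted p under 0.05, against 20 of 18294 genes tested (0.109%). The adjusted p of the subunits was between 0.859 and 0.988. At an unadjusted p under 0.05 there were 2 subunits (4.65%), against 4.32% of all genes, and both, Kcnc1 and Kcnip1, were higher in 16p11.2+/- mice, where 1.95% of all genes were higher and 2.37% lower. The share of subunits called was thus near that of all genes. DESeq2 and limma-voom also called 0 at an adjusted and 2 at an unadjusted p under 0.05, where 2.92% and 4.27% of all genes were under 0.05. The values of the groups did not overlap for 0 subunits and for 2.85% of all genes. Of the 43 log2 fold changes 23 were positive and 20 negative, with a median of 0.05 beside -0.01 for all genes. The count of 2 rested on single mice. It was 8 without WT-1063 (all higher, where 8.21% of all genes were called), 4 without DF-1018 (2 higher and 2 lower, Kcna4 and Kcnh4, 7.17%), 3 without DF-1059 (2 higher and 1 lower, Kcnk2, 5.06%), 1 each without WT-1015 (2.47%), WT-1041 (3.43%) or DF-1062 (2.55%) and 0 without WT-1061 (3.01%). Without WT-1063 the 8 were Kcnc1, Kcnip1, Kcnj10, Kcnd3, Kcnh2, Kcnip4, Kcnc2 and Kcnab3, of which Kcnc1, Kcnc2, Kcnab3, Kcnip4 and Kcnh2 are also among the genes highest in the 4 libraries with most thalamus transcripts.

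**Figure D2:**
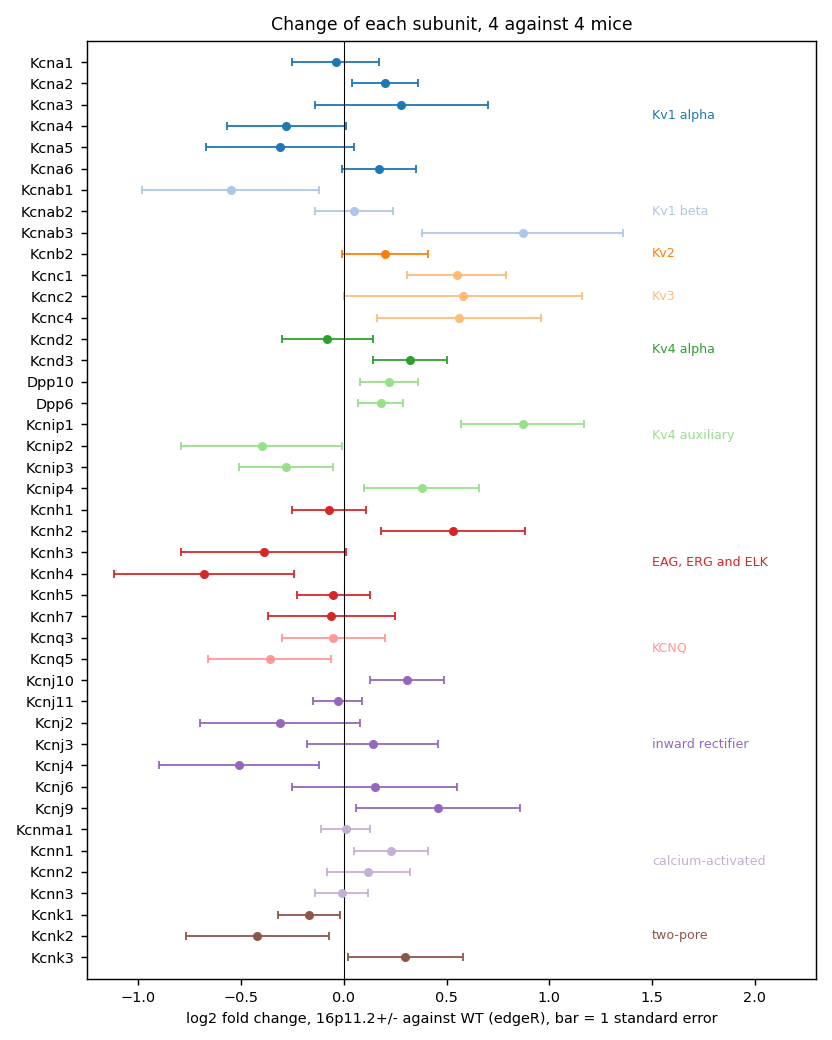
Log2 fold change of each subunit in 16p11.2+/- against WT striatum (4 against 4 mice, edgeR), with a bar of 1 standard error and a colour for each family. Values run from -0.68 (Kcnh4) to 0.87 (Kcnip1), with 23 above and 20 below 0.

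The size of Kcnc1 and Kcnip1 depended on the libraries that stood apart. Without the 4 libraries with high thalamus markers, which leaves 3 WT mice and 1 16p11.2+/- mouse that is assumed to vary like the WT mice, the log2 fold change was 0.33 for Kcnc1 (standard error 0.14, edgeR p of 0.0462 unadjusted and 0.977 adjusted) and 0.46 for Kcnip1 (standard error 0.27, edgeR p of 0.138 unadjusted). Without DF-1037 and DF-1062 it was 0.26 (standard error 0.24) for Kcnc1 and 0.32 (standard error 0.21) for Kcnip1. With the thalamus score, the mean over that list of log2 CPM (counts scaled by library size), as a covariate it was 0.25 and 0.62, and with the medium spiny neuron score 0.34 and 0.41. The one subunit under an unadjusted 0.05 was Kcnh1 with the thalamus score (0.20, edgeR p of 0.0238 unadjusted), whose log2 fold change without a covariate was -0.07 (edgeR p of 0.704 unadjusted), and Kcnip1 with the medium spiny neuron score (edgeR p of 0.0307 unadjusted).

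Mice of the same genotype also differed among themselves. On CPM, DF-1062 had the lowest value of the 8 mice for 15 subunits and the highest for 9, and DF-1037 had the highest for 13, and on FPKM these counts were 14, 12 and 12. Over all genes tested, on CPM, DF-1062 was lowest in 21.9% and highest in 20.3%, and DF-1037 was highest in 16.8%. The SD of log2 CPM was larger in 16p11.2+/- than in WT mice for 34 of the 43 subunits (79.1%) and for 62.8% of all genes. The median SD of the subunits was 0.31 in WT and 0.51 in 16p11.2+/- mice, beside 0.20 and 0.25 over all genes. Without DF-1037 and DF-1062 the SD was larger in the 2 remaining 16p11.2+/- mice for 6 subunits (14.0%, against 29.4% of all genes), with a median of 0.15, although an SD of 2 mice is itself imprecise. DF-1037 and DF-1062 are the libraries with the fewest medium spiny neuron transcripts.

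**Figure D3:**
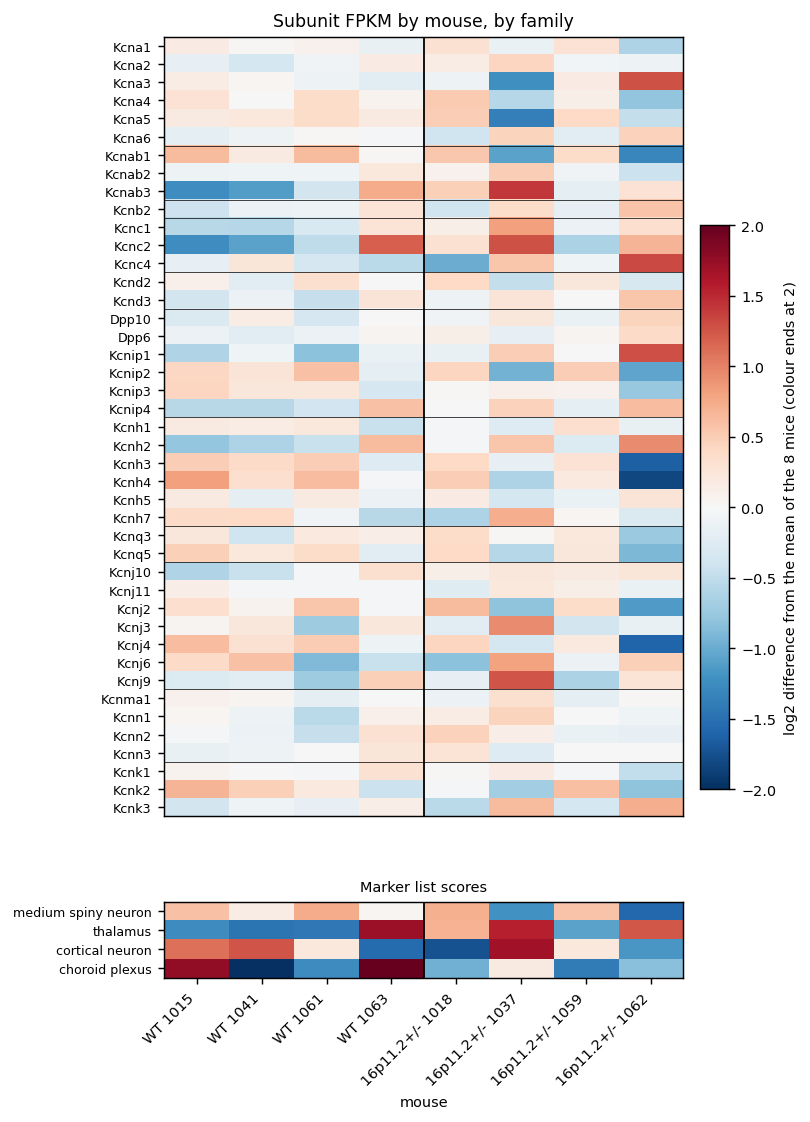
Each subunit's FPKM in each mouse as a log2 difference from its mean over the 8 mice, by family (upper panel), and the scores of 4 marker lists, as differences from their means (lower panel), with the colour scale ending at 2. DF-1037 and DF-1062 carry many of the deepest colours, in both directions, and Kcnc2 and Kcnab3 are below their means (blue) in the 4 mice with low thalamus scores.

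On CPM, DF-1037 and DF-1062 were both below the other 6 mice in 10 subunits (23.3%, against 11.8% of all genes). These were the A-type pair Kcnd2 and Kcnip2, the Kv1 genes Kcna4, Kcna5 and Kcnab1, the inward rectifiers Kcnj2 and Kcnj4, and Kcnh4, Kcnq5 and Kcnk2. In 6 subunits (14.0%, against 9.27%) both were above the other 6 mice, namely Kcna6, Kcnb2, Kcnc4, Kcnip1, Dpp10 and Kcnk3, and on FPKM also Kcnc1. A different set of 6 subunits (14.0%, against 5.19% of all genes) was higher in all 4 libraries with high thalamus markers than in the other 4, and included the Kv3 genes Kcnc1 and Kcnc2 with Kcnab3, Kcnip4, Kcnh2 and Kcnj9. Kcnh1 and Kcnk2 (4.65%, against 3.03%) were lower in all 4. These libraries are 1 WT and 3 16p11.2+/- mice and also had the most Pvalb transcripts (25.9 to 103, against 10.4 to 20.2). The other interneuron markers did not share this split, as Chat (0.914 to 5.16, against 3.26 to 7.81). The part of thalamus, interneuron or medium spiny neuron RNA in the subunit values was not tested. The promoters of Kcnip2 and Kcnj4 from the first set and of Kcnc1 from the third all held GC boxes, and that of Kcnj9 from the third held none.

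**Figure D4:**
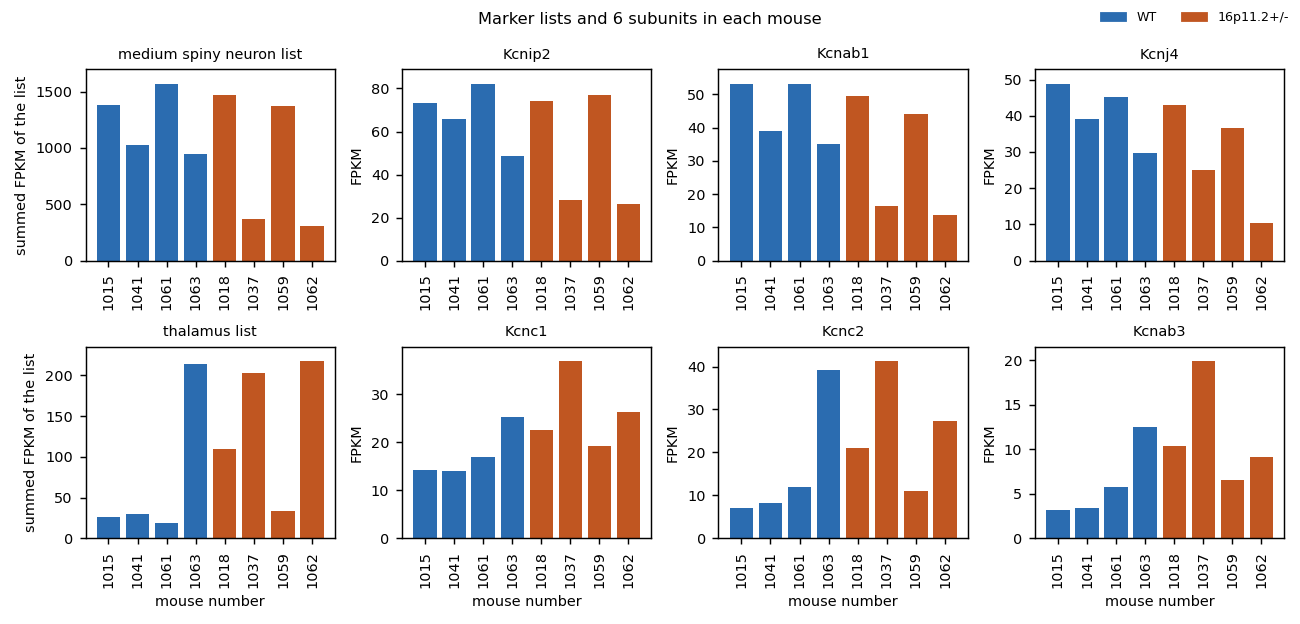
Summed FPKM of the medium spiny neuron and thalamus markers (left panels) and FPKM of 6 subunits (other panels) in each mouse, as bars from 0. Kcnip2, Kcnab1 and Kcnj4 are low where the first list is low (371 in DF-1037 and 305 in DF-1062), and Kcnc1, Kcnc2 and Kcnab3 are high in the 4 mice where the second list is high (110 to 217).

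Ratios of subunits that assemble together were taken within each mouse, so that the depth of the library cancels. Kcnip2 had 1.78, 2.01, 1.72 and 1.3 times the FPKM of Kcnd2 in the WT mice and 1.47, 1.03, 1.73 and 0.864 times in the 16p11.2+/- mice. The ratio was thus 1.7 ± 0.31 in WT and 1.3 ± 0.40 in 16p11.2+/- mice, and the groups overlapped. For Kcnab1 over Kcnab2 it was 0.921 ± 0.256 and 0.613 ± 0.364, with 0.232 in DF-1037 and 0.372 in DF-1062. Kcnip4 over Kcnip2 ran from 0.151 to 0.506 in WT, the highest in WT-1063, and reached 0.788 in DF-1037 and 0.948 in DF-1062. Kcna1 over Kcna2 was 1.04 ± 0.206 in WT and 0.872 ± 0.276 in 16p11.2+/- mice, and Dpp10 over Dpp6 was 0.417 ± 0.0805 and 0.431 ± 0.0854. The remaining pairs were Kcnc2 over Kcnc1 (0.837 ± 0.487 and 0.917 ± 0.241), Kcnd3 over Kcnd2 (0.218 ± 0.0721 and 0.309 ± 0.139), Kcnj9 over Kcnj3 (1.01 ± 0.224 and 1.21 ± 0.245) and Kcnq5 over Kcnq3 (0.908 ± 0.238 and 0.704 ± 0.133). In all 9 pairs the ranges of the genotypes overlapped.

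**Figure D5:**
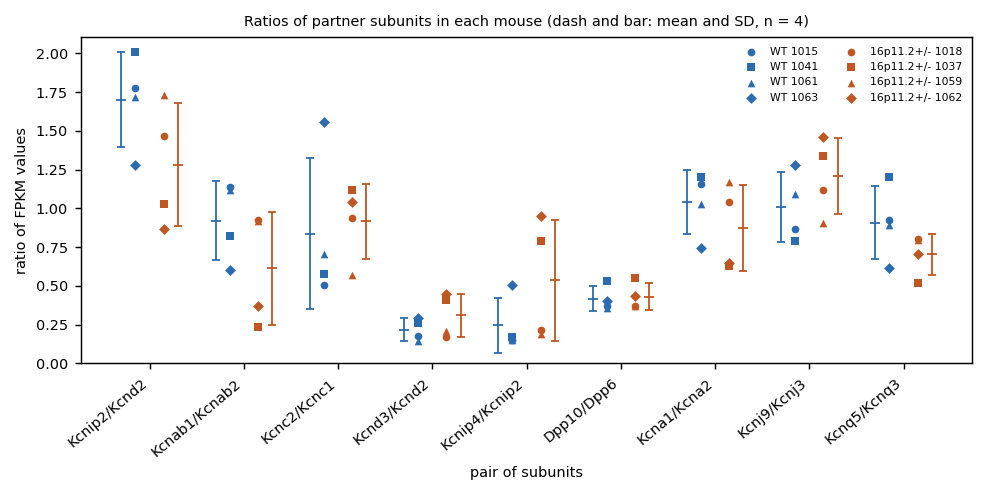
Ratio of the FPKM of 9 pairs of subunits in each mouse, with the mean and SD of each genotype (n = 4). For Kcnab1/Kcnab2 DF-1037 (0.232) and DF-1062 (0.372) lie below every WT mouse, and the genotypes overlap in each pair.

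By family, the summed FPKM of the 6 Kv4 auxiliary subunits was 146 ± 11.8 in WT and 136 ± 22.1 in 16p11.2+/- mice, and that of the 7 inward rectifiers 146 ± 12.5 and 154 ± 20.3. The 3 Kv1 beta subunits summed to 101 ± 7.91 and 94.7 ± 23.7 and the 6 Kv1 alpha subunits to 87.8 ± 4.6 and 90.2 ± 10.1. The 3 Kv3 subunits summed to 40.2 ± 19.4 and 60.5 ± 23.1, with 69.1 in WT-1063 and 87.9 in DF-1037. Sums of the two-pore, Kcnh and Kv4 alpha families were 63.7 ± 4.38, 51.1 ± 5.76 and 48.3 ± 5.51 in WT and 55.2 ± 9.72, 46.0 ± 7.09 and 48.9 ± 9.23 in 16p11.2+/- mice. For KCNQ and calcium-activated subunits they were 32.9 ± 4.92 and 24.7 ± 2.3 in WT and 29.1 ± 9.69 and 25.9 ± 2.40 in 16p11.2+/- mice. In each family the ranges of the genotypes overlapped.

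A further 52 potassium channel genes outside the list were read from the same fit. Of these 35 passed the filter on low counts, 0 passed the test after adjustment with edgeR or DESeq2, and 2 (5.71%, against 4.32% of all genes) had an unadjusted edgeR p under 0.05, both higher in 16p11.2+/- mice, with a median log2 fold change of 0.18 over the 35 genes beside -0.01 for all genes. Kcnj16, the usual partner of Kcnj10 in glia, had an FPKM of 3.66, 4.43, 4.50 and 6.08 in WT and 6.00, 8.34, 7.70 and 13.2 in 16p11.2+/- mice. The only overlap was between WT-1063 and DF-1018, and the log2 fold change was 0.88 (standard error 0.23, edgeR p of 0.00376 unadjusted and 0.859 adjusted). On normalized CPM the groups did not overlap, as for 2.85% of all genes. Kcnk12, a two-pore gene, was at 0.445 ± 0.111 in WT and 1.06 ± 0.632 in 16p11.2+/- mice, from 9 to 52 counts per mouse, with a log2 fold change of 1.21 (standard error 0.46, edgeR p of 0.0279 unadjusted and 0.859 adjusted). It was highest in DF-1037 (1.75) and DF-1062 (1.41), with 0.699 in DF-1059 and 0.373, inside the WT range, in DF-1018. The sodium-activated Kcnt1, among the 3 highest of the 52 in WT striatum, was at 28.1 ± 4.15 in WT and 27.0 ± 6.26 in 16p11.2+/- mice, with a log2 fold change of -0.08 (standard error 0.19, edgeR p of 0.701 unadjusted). Its level lies between those of Kcnk1 (37.7 ± 4.18) and Kcnk2 (22.6 ± 6.85). Kcne2 and Kcnj13, singled out after their values were seen, did not pass the filter and were at 24.8 and 21.5 in WT-1063, the mouse with most choroid plexus transcripts, and at 3.07 or less in every other mouse, and Kcnj13 shares 49.1% of its exon sequence with other genes.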

How the data were processed

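RNAseq of striatum from 8 mice, 4 of each genotype, was analysed from the tables that the authors deposited. By the study's methods the authors trimmed the paired reads, mapped them with Hisat2 2.1.0 and took the count of each gene with Htseq-count, which was deposited unnormalized. The submitters' processing notes list Bowtie 0.12.2 with mm8 and mm9 instead, and which holds was not settled. The annotation and the strand setting are not given in the sources used here, so overlapping genes may share or lose reads. The FPKM that the authors deposited equals each count over a fixed length of the gene and over the library total. Their table of fold changes and p-values from DESeq2 1.28.1 and a binned FPKM summary were not used. Positions were read from GENCODE M21 (GRCm38). Its exon lengths match those implied by FPKM within 0.01% for 97.3% of 35149 genes and for 42 of the 43 subunits (not Kcnn2).

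Levels were compared on FPKM, which is per length. Genotypes were compared on counts with edgeR 4.0.16 in R 4.3.3 (TMM, genes kept by filterByExpr at 10 counts and a total of 15, quasi-likelihood test, Benjamini-Hochberg over the 18294 genes tested, threshold 0.05), and the standard error was derived from the F statistic. A marker score is the mean log2 CPM of a list (prior count 2). The code was tested on simulated data. Counts of mice of a genotype differed by 8.07 to 56.0 times sampling noise, so each library is 1 sample. Nothing states litter or batch.

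Subunits given in every mouse were the 10 highest by WT FPKM, those with an unadjusted p under 0.05 or without overlap of the groups, and the 5 largest in absolute log2 fold change and in coefficient of variation. Of the other channel genes the rule took the 3 highest and those with an unadjusted p under 0.05, and some of the genes it took, and some leading markers, are not reported here. Mapk3 and Ppp4c stand for the deleted segment. The subunits, lists and rules were chosen with earlier results of these data known. Alternatives were limma 3.58.1 (voom, or trend on log2 of FPKM plus 1 or 0.1), DESeq2 1.42.0, RLE factors, library totals, other filters, marker scores as covariates, the 4 libraries with high thalamus scores left out and each mouse left out. The medium spiny neuron covariate, leaving out DF-1037 and DF-1062, and the alternatives for the SD were chosen after seeing the data.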

Additional observations from a re-analysis of the deposited data

Results flagged for a closer look

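Within groups of 4 mice, 10 of 114 sets of values (8.77%) had a mouse far from its group. Chance gives about 1 in 20 for independent, normally distributed sets. The sets here come from the same libraries and are not independent, so the share cannot be read as an excess. The first number given is how far the mouse lay from its nearest neighbour, divided by the range of the 4. WT-1063 was high for Kcnab2 (0.942, with 58.0 FPKM where the remaining WT mice had 46.8 to 47.5), Kcnc2 (0.852, 39.2 against 7.20 to 12), Kcnip4 (0.898, 24.5 against 11.0 to 12.4) and Kcnh2 (0.844, 12.6 against 4.71 to 5.94). The same mouse was low for Kcnh1 (0.894, 7.18 against 10.8 to 11.3) and for Kcnt1 (0.890, 22.0 against 29.7 to 30.7). Its thalamus score also stood apart (0.934, 6.34 against 3.16 to 3.37 in mean log2 CPM). In 16p11.2+/- mice, DF-1062 was low for Kcnip3 (0.886, 16.5 against 28.4 to 29.9) and DF-1037 was high for Kcnj3 (0.886, 27.4 against 11.0 to 12.8). WT-1015 was high for Kcnj11 (0.945), but by a narrow margin (8.54 against 7.62 to 7.67). The part of thalamus RNA in these values was not tested.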

How the results depend on the processing

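No paired analysis was possible because nothing states a litter or batch by which WT and 16p11.2+/- mice could be paired. No subunit passed the adjusted threshold under any alternative run, and no other potassium channel gene passed it with DESeq2, with every gene of at least 1 count or with a mouse left out, the alternatives run for those genes. The count of subunits at an unadjusted p under 0.05, 2 in the main test, was 1 with the thalamus, the cortical neuron or the medium spiny neuron score as a covariate (4.09%, 3.76% and 3.11% of all genes), and ranged from 0 (without WT-1061, 3.01%) to 8 (without WT-1063, 8.21%) with a mouse left out. Where it stayed at 2 the genes could differ from Kcnc1 and Kcnip1: they were Kcna1 (0.27, -0.04 in the main test) and Kcna6 (-0.23, 0.17 in the main test) without DF-1037 and DF-1062, Kcnip4 (0.31) and Kcnc1 without the 4 libraries with high thalamus scores, and Dpp6 (0.26) and Kcnip1 without DF-1037. The count of subunits without overlap of the groups was 4 without DF-1037 and DF-1062 (Kcna1, Kcna5, Kcna6 and Kcnk3, where 13.5% of all genes did not overlap) and from 0 to 7 with a mouse left out (7 without WT-1063, where 10.3% did not). The count with a larger SD in 16p11.2+/- mice was 6 without DF-1037 and DF-1062 (29.4% of all genes). With a mouse left out it was from 27 (without DF-1037, 54% of all genes) to 39 (without WT-1063, 73% of all genes). Of the 10 highest subunits by FPKM, 6 were also among the 10 highest by CPM, which does not correct for length. The median log2 fold change of the subunits, 0.05 in the main test, was from 0.01 to 0.10 with a mouse left out and -0.01 with the thalamus score as a covariate, where 20 were positive and 23 negative.

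Of 357 log2 fold changes of the 17 subunits given in every mouse, 30 changed sign, 8 of them when a mouse was omitted. Adding the thalamus score as a covariate, the log2 fold change was -0.05 for Kcnab2, 0.04 for Kcnd2, 0.11 for Kcna1, -0.04 for Kcnc2 and -0.10 for Kcnj9. Without the 4 libraries with high thalamus scores it was 0.05 for Kcnip2, 0.12 for Kcnd2, 0.18 for Kcna1, -0.27 for Kcnj9 and -0.04 for Kcnc4. With the medium spiny neuron score as a covariate it was 0.01 for Kcnip2, 0.18 for Kcnd2, 0.20 for Kcna1, -0.05 for Kcnj9 and -0.13 for Kcnc4. Without DF-1037 and DF-1062 it was 0.17 for Kcnip2, 0.06 for Kcnab1, 0.26 for Kcnd2, 0.27 for Kcna1, -0.03 for Kcnc2, -0.25 for Kcnj9 and -0.30 for Kcnc4. With a mouse left out it ranged from -0.12 to 0.21 for Kcnab2, from -0.25 to 0.06 for Kcnd2, from -0.16 to 0.15 for Kcna1 and from -0.03 to 0.72 for Kcnj9. The cause of these changes was not tested. The other 9 subunits kept their direction under each alternative, but some came near 0, as Kcnj4 (-0.51 in the main test and -0.03 without DF-1037 and DF-1062), Kcnh4 (-0.68 and -0.12 without the same mice), Kcnip3 (-0.28 and -0.05 with the thalamus score) and Kcnk1 (-0.17 and -0.02 without DF-1062). Scaling by RLE factors or library totals moved the median of all genes by at most 0.02. With 4 mice a group and standard errors between 0.11 and 0.58 on the log2 scale, small differences in single subunits were not detectable. Larger ones could be missed as well, since Kcnip1 at 0.87 (standard error 0.30) did not pass the test (edgeR p of 0.859 adjusted).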
